A study of Mus musculus with 12 samples.

Results

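MHC class I antigen presentation was described through 10 genes, chosen by name and found by symbol among the 55414 gene identifiers of the count table: H2-K1, H2-D1, B2m, Tap1, Tap2, Tapbp, Psmb8, Psmb9, Psmb10 and Nlrc5. All 10 had enough counts to be tested. The RNA came from 3T3-L1 cells, a mouse fibroblast line that turns into fat cells when given adipogenic hormones and is listed as mesenchymal stem cells. There were 4 groups of 3 libraries: FHL2-GFP cells at day 2, CTRL-GFP cells at day 2, FHL2-GFP cells at day 0 and CTRL-GFP cells at day 0, called FHL2 and control below after their labels. FHL2 is a LIM-domain cofactor of transcription, and the labels give the genotype of the FHL2 cells as overexpression. Day 0 cells were past confluence, and day 2 cells had then been kept with insulin, dexamethasone and isobutylmethylxanthine. Every group is a derivative of 1 cell line. The labels do not say whether the 3 libraries came from separate cultures, so p-values measure only the spread between these libraries.

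Class I molecules show peptides from inside the cell to CD8 T cells and natural killer cells. Peptides are cut by the proteasome, carried into the endoplasmic reticulum by the TAP transporter, and loaded with the help of tapasin onto a heavy chain that is paired with beta-2-microglobulin. Interferons raise most of these genes, through IRF1 among others and through NLRC5, the transactivator that works at class I promoters with the RFX, CREB/ATF and NF-Y factors. Fibroblasts and preadipocytes carry class I on their surface without being professional antigen-presenting cells.

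The promoters of 8 of the 10 genes were in the RefSeq table (build GRCm38.p6), as windows of 300 bases around the start of the gene. The windows of H2-K1 (chr17:34000298-34000597, minus strand), H2-D1 (chr17:35262844-35263143, plus strand), B2m (chr2:122147437-122147736, plus strand) and Tap1 (chr17:34187306-34187605, plus strand) are printed 5′ to 3′ in the direction of each gene. The first 3 belong to the subunits of the class I molecule, and the last overlaps the window of Psmb9, on the opposite strand, over 275 bases. Capitals mark matches on either strand to an NF-kB-like motif, the core of the interferon-stimulated response element, CCAAT (the letters read by NF-Y), TGACG (the core of the cAMP response element) or TTCNNNGAA (the gamma-activated sequence).
H2-K1: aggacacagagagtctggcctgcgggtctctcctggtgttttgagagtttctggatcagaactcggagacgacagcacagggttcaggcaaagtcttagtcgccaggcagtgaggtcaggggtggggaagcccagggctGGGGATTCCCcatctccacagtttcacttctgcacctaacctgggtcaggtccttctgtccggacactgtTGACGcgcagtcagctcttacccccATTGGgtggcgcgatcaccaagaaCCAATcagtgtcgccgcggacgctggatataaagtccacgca
H2-D1: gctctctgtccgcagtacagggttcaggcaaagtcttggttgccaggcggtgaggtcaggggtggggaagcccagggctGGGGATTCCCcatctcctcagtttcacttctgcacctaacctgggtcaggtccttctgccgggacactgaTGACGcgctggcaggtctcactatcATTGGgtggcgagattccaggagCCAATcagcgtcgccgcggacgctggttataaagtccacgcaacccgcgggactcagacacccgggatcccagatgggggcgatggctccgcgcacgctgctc
B2m: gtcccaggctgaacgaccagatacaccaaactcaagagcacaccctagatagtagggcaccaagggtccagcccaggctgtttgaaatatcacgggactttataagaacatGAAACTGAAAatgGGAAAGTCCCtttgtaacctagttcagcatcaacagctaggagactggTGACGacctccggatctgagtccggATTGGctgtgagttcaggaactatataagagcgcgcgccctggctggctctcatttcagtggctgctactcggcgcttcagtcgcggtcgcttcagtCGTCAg
Tap1: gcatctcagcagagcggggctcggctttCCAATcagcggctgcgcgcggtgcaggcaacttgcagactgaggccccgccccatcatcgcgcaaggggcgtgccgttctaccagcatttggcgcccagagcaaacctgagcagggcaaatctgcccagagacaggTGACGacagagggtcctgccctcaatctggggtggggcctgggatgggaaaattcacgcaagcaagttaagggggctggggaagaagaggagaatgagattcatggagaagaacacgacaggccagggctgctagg
H2-K1, H2-D1 and B2m were the 3 of 8 windows with the NF-kB-like letters, which 4.71% of 27025 promoters hold. In H2-K1 and H2-D1 the match has the same letters, GGGGATTCCC. The fixed pattern used for the interferon-stimulated core was matched in B2m alone among the 8 (3.49% of all promoters). Looser variants of that core were not searched. Windows without a match, those of H2-K1 and H2-D1 among them, may therefore still hold an interferon response sequence. The gamma-activated letters were matched in Psmb8 alone (8.47%). CCAAT was in 6 of 8 windows (37.9% of all promoters) and TGACG in 5 of 8 (21.0%), and H2-K1, H2-D1, B2m, Tap1 and Psmb9 held both. In Tap1 and Psmb9 these are the same bases of the shared stretch, read from opposite strands and counted for each gene. All motif matches are a description of letters, not of binding.

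Some facts of the whole series bear on what follows. Libraries held 10047708 to 18081275 counts at day 2 and 14686042 to 21872139 at day 0, with 12689 to 16131 and 17977 to 18811 genes detected. Replicates varied more at day 2, with a biological coefficient of variation of 0.472, than at day 0, with 0.123. Fhl2 itself had 18.7, 9.92 and 22.6 CPM (counts scaled to library size by the TMM method) in FHL2 libraries at day 2, against 13.9, 14.2 and 21.0 CPM in control libraries. At day 0 it had 67.4, 58.8 and 62.0 CPM in FHL2 libraries, against 58.9, 61.0 and 63.6 CPM in control libraries. These values overlap and Fhl2 was not called different (adjusted p = 0.914 at day 2 and 1 at day 0, edgeR's quasi-likelihood test), so each direction between the lines rests on the labels alone. Marker sums are in CPM of library totals, without TMM scaling. Fibroblast and preadipocyte markers summed to 23077 to 26325 CPM at day 2 and 31288 to 34826 CPM at day 0. In the same unit 10 macrophage and blood markers summed to 1.22 to 4.01 CPM at day 2 and 7.75 to 14.9 CPM at day 0. Of these, Adgre1 and Tyrobp had 0 counts in every library. Changes by day moved with GC content: over 5 classes of genes by GC content, the median log2 fold change was -1.54 in the lowest class and 0.74 in the highest in FHL2, and -1.66 and 0.77 in control. B2m, at 41.2% GC, lies in the lowest class, and the other 9 genes have 52.5% to 57.1%, so changes by day are given without and with an offset per library that follows GC content.

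Per kilobase of transcript, B2m had the highest level of the 10 genes in every group, with 4433 ± 412 CPM per kilobase in FHL2 at day 2, 3335 ± 306 in control at day 2, 4307 ± 282 in FHL2 at day 0 and 4259 ± 385 in control at day 0 (SD, n = 3 each). H2-D1, H2-K1, Tapbp and Psmb10 followed in that order in all 4 groups without overlap between neighbours. Tap1 came next and then Tap2, whose libraries overlapped with those of Tap1 at day 2 in both lines. Psmb9, Psmb8 and Nlrc5 were lowest in every group, at means of 1.06 to 5.27 CPM per kilobase, and neighbours among these 3 overlapped in every group. Lengths were those of the longest annotated transcript of each gene (2884 bases for Psmb9). The order may depend on that choice, which was not tested.

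**Figure D1:**
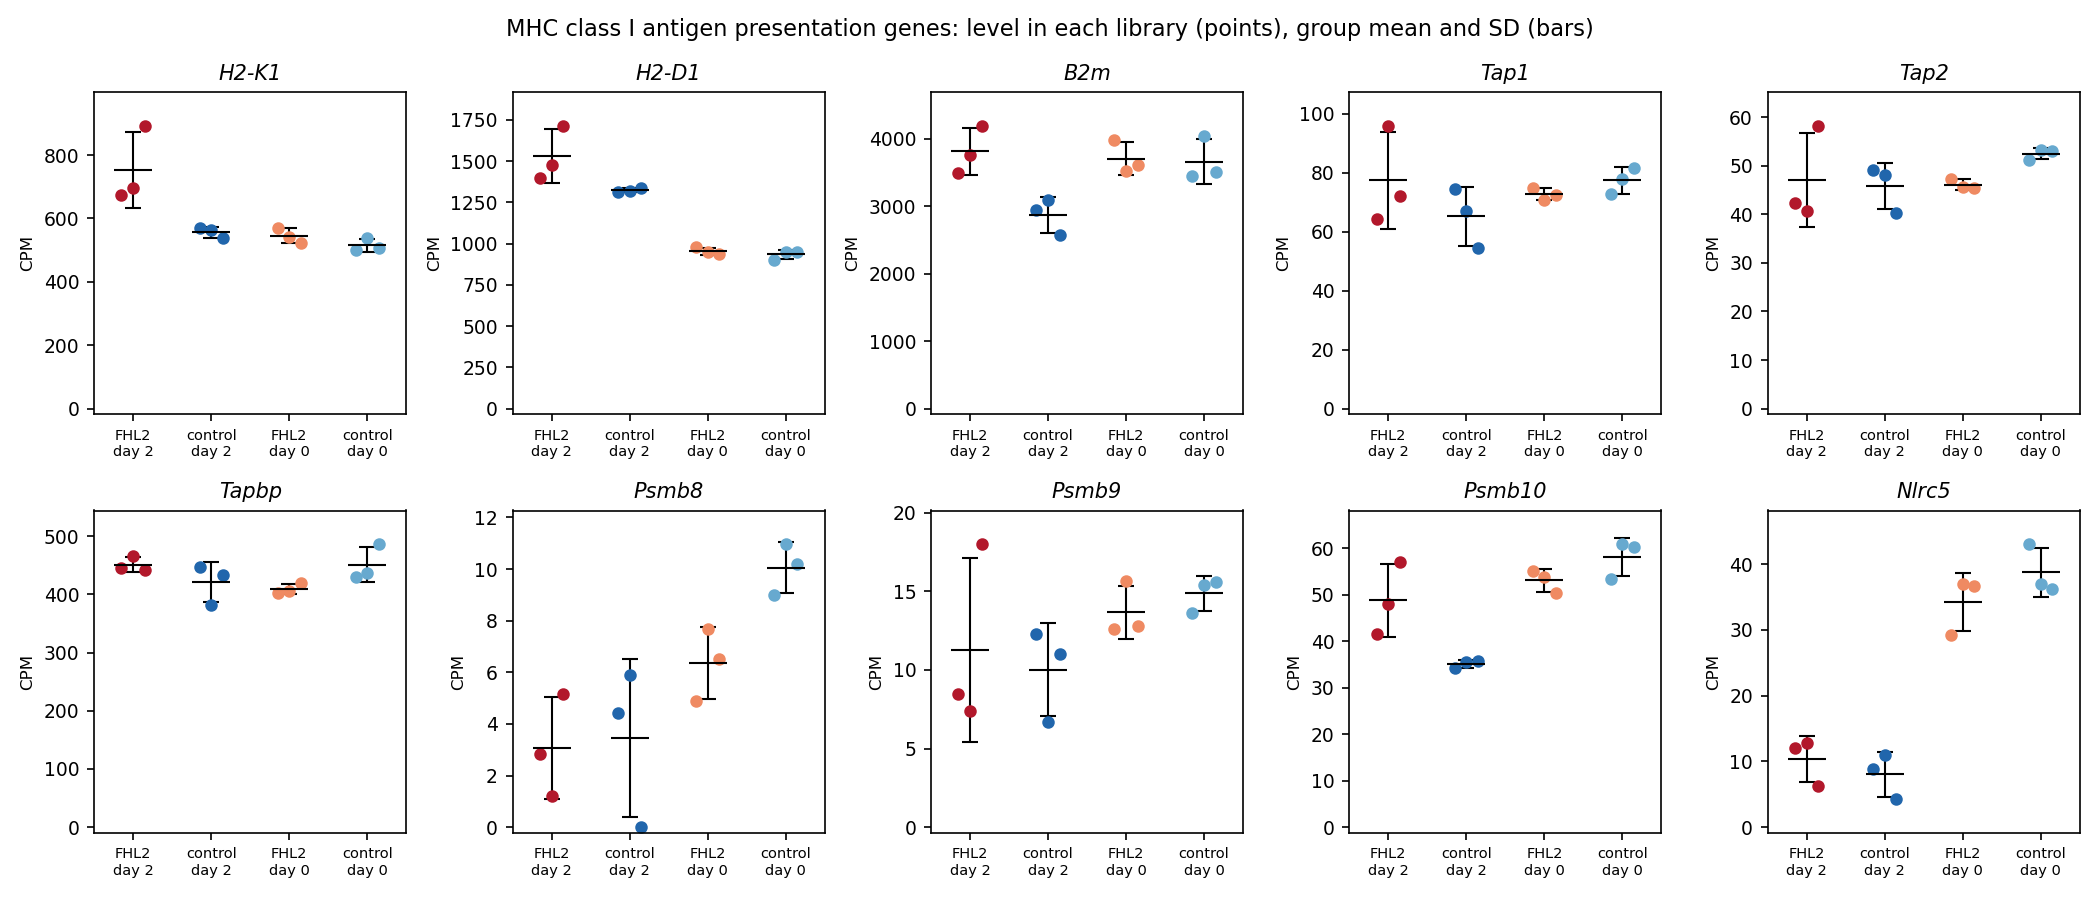
Level of each of the 10 class I genes in CPM (vertical axes) in the 3 libraries of each group (points), with group mean and SD (bars). H2-D1 is higher and Nlrc5 lower in all day 2 libraries than in all day 0 libraries, and H2-K1, H2-D1, B2m and Psmb10 are higher in every FHL2 library than in every control library at day 2.

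FHL2 was compared with control at day 2 to ask whether the lines differ after induction. H2-K1 and B2m, a heavy chain and the light chain of the class I molecule, were higher in FHL2, by 1.35-fold and 1.33-fold. They were the 2 of 10 genes called, all in the higher direction, beside 0.72% of 14435 tested genes called higher and 2.07% called in either direction. The fitted difference was positive for 9 of 10, beside 7359 of 14435 tested genes, with a median log2 fold change of 0.23 beside 0.01 over all tested genes. Psmb8 turned positive with limma-voom and Nlrc5 negative without the 3 day 2 libraries with fewest genes. Leaving out 1 library gave values down to -0.35 for Psmb9 and -0.16 for Tap2, and up to 0.39 for Psmb8. In bulk RNA, fewer cells of a type and less RNA per cell cannot be told apart. In 4 genes (H2-K1, H2-D1, B2m and Psmb10) all FHL2 libraries were above all control libraries, as in 7.28% of tested genes; none had all below (7.41% of tested genes). With the GC offset H2-K1 alone was called, beside 0.935% higher and 1.72% lower.

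H2-K1, a classical class I heavy chain, had 675, 695 and 892 CPM in FHL2 libraries at day 2, against 569.9, 562 and 537 CPM in control libraries. All FHL2 libraries were above all control libraries, with FHL2 library 3 the highest. The log2 fold change was 0.44 ± 0.10 (SE, adjusted p = 0.0346, edgeR). B2m had 3487, 3759.9 and 4191 CPM in FHL2 libraries, against 2938, 3090 and 2577 CPM in control libraries. Its groups did not overlap either, and its log2 fold change was 0.41 ± 0.09 (SE, adjusted p = 0.0385, edgeR). H2-D1, the other heavy chain, had 1399, 1478 and 1713 CPM in FHL2 libraries, against 1313, 1318 and 1337 CPM in control libraries, also without overlap. Its log2 fold change of 0.21 ± 0.08 did not pass (adjusted p = 0.166, edgeR).

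Both calls rest near the threshold. The call of H2-K1 was kept in 1 of 12 fits that left out a library (without FHL2 library 1 of day 2, adjusted p = 0.0235) and reached 0.116 at most, with log2 fold changes of 0.29 to 0.51. That of B2m was kept in 2 of 12 (without FHL2 library 1 of day 2 and without control library 2 of day 0; adjusted p 0.0370 to 0.148), with log2 fold changes of 0.31 to 0.47. With only the day 2 libraries in the fit, the adjusted p was 0.215 for H2-K1 and 0.122 for B2m, and the GC offset gave 0.0278 and 0.0966.

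Psmb10, an immunoproteasome subunit, had the largest fitted difference of the 10 genes, with 41.5, 48.0 and 57.0 CPM in FHL2 libraries, against 34.2, 35.6 and 35.7 CPM in control libraries. These groups did not overlap, but its log2 fold change of 0.47 ± 0.14 did not pass (adjusted p = 0.0876, edgeR); without FHL2 library 1 it did (0.58, adjusted p = 0.0389). Differences of the other 6 genes lay between -0.18 (Psmb8) and 0.34 (Nlrc5) with adjusted p of 0.417 to 0.941, and their groups overlapped. None of the 9 loading and trimming partners, 11 other class I genes, 10 proteasome genes, 11 interferon receptors, kinases and suppressors and 18 regulators reported here was called.

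At day 0, before induction, no class I gene was called between FHL2 and control, beside 7 genes called in all (0.0485%, 0.0208% higher and 0.0277% lower; with the GC offset 0.0277% and 0.0554%). None of the 10 had an unadjusted p under 0.05 in edgeR, DESeq2 called none of them, and the median log2 fold change was -0.13 beside -0.02 over all tested genes. Tap2, Tapbp and Psmb8 had every FHL2 library below every control library (3 of 10, beside 11.1% of tested genes), and no gene had every FHL2 library above (10.5% of tested genes). Psmb8 had 4.90, 7.67 and 6.50 CPM in FHL2 libraries, against 8.997, 10.95 and 10.2 CPM in control libraries. Its log2 fold change was -0.66 ± 0.79, and the SE exceeds the difference.

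The change by day in FHL2 was then set against that in control. All 10 interaction terms were positive, beside 7528 of 14435 tested genes, with a median of 0.35 on the log2 scale beside 0.02 over all tested genes. Nlrc5 turned negative without the 3 day 2 libraries with fewest genes. Leaving out 1 library gave values down to -0.18 for Psmb8 and -0.24 for Psmb9. None of the 10 terms was called, and 1 gene was called in all (0.00693%, and with the GC offset 0.0139% in each direction). The terms of Psmb10 (0.61 ± 0.19), B2m (0.39 ± 0.13) and H2-K1 (0.36 ± 0.14, SE) passed 0.05 only before adjustment, where 996 of 14435 tested genes passed. The adjusted p of these 3 terms was 0.550 to 0.629 in edgeR. The terms share their FHL2 and control day 2 libraries with the comparison above and are not independent of it.

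Day 2 was compared with day 0 to follow the genes through induction. Nlrc5, the transactivator, fell to 11.998, 12.8 and 6.30 CPM in FHL2 libraries at day 2, against 29.2, 36.9 and 36.7 CPM at day 0. In control it fell to 8.79, 11.02 and 4.33 CPM at day 2, against 43.0, 37.0 and 36.2 CPM at day 0. Every day 2 library lay below every day 0 library in both lines. The log2 fold change was -1.73 ± 0.31 in FHL2 (adjusted p = 0.000249, edgeR) and -2.25 ± 0.31 in control (adjusted p = 2.81e-05, edgeR). With the GC offset it was -2.12 and -2.66 (adjusted p = 7.10e-05 and 1.15e-05), and both calls were kept whichever library was left out. Summed macrophage and blood markers, in CPM of library totals, were lower at day 2 too, at 1.22 to 3.98 in FHL2, against 8.79 to 14.9 at day 0. In control they summed to 1.28 to 4.01 CPM, against 7.75 to 8.84 at day 0. Most of the day 0 sum was Lyz2. On the TMM scale it averaged 8.80 CPM in FHL2 and 5.57 in control, against 1.66 and 0.89 at day 2. On that scale Cd68 averaged 1.02 CPM in FHL2 and 1.10 in control at day 0, against 0.31 and 1.05 at day 2. None of the 3 tested markers was called by day in either line. The part of these markers in the fall of Nlrc5 was not tested. Nlrc5 was the 1 member that was called in the same direction in both lines with and without the offset.

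In all, 2 members rose (H2-K1 and H2-D1) and 1 fell (Nlrc5) in FHL2, beside 25.8% of tested genes called higher and 30.2% called lower, 56% in all. In control 1 rose (H2-D1) and 3 fell (B2m, Psmb10 and Nlrc5), beside 26.3% and 30.8%, 57.1% in all. With the GC offset 1 member rose (B2m) and 5 fell in FHL2, beside 20.5% higher and 19.8% lower, and 1 rose (B2m) and 7 fell in control, beside 20.7% and 19.5%. Without the offset, 3 members in FHL2 had all day 2 libraries above those of day 0 (29.2% of tested genes) and 1 had all below (37%), and in control 2 were above (29.8%) and 6 below (38.9%).

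**Figure D2:**
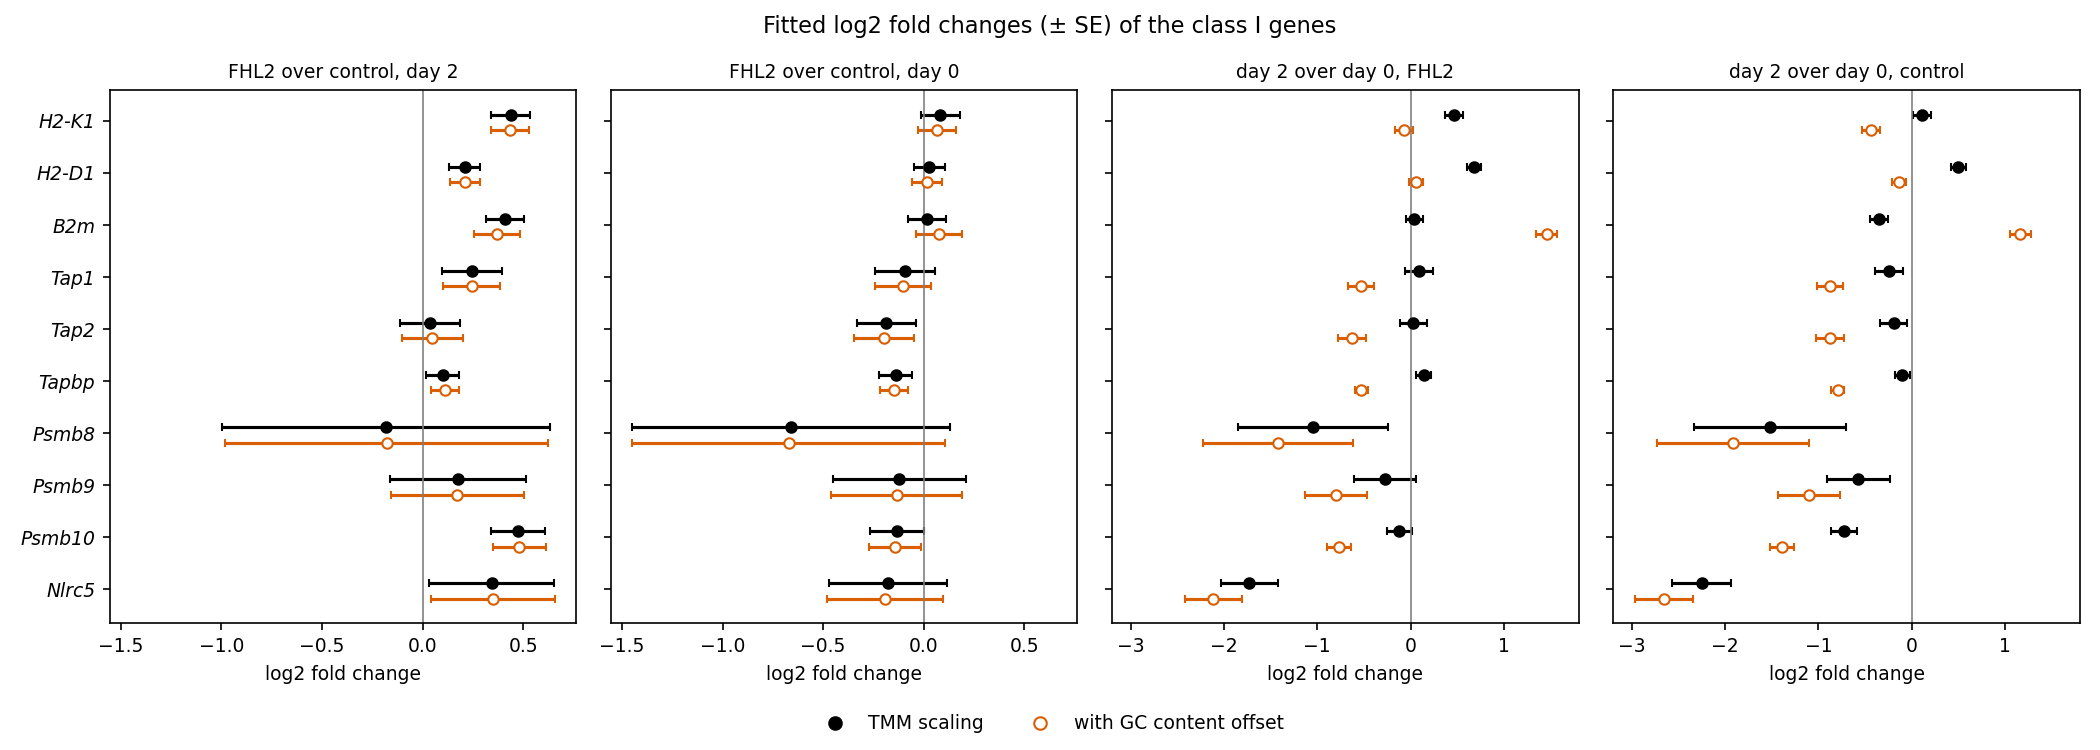
Fitted log2 fold change (horizontal axes) of each class I gene with its SE, in 4 comparisons, under TMM scaling (filled) and with an offset following GC content (open). The offset hardly moves FHL2 against control, whereas by day it turns B2m upward (1.46 in FHL2, 1.16 in control) and moves the other 9 genes downward.

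The heavy chains were higher at day 2 under TMM scaling and not with the GC offset. H2-D1 had 1399, 1478 and 1713 CPM in FHL2 libraries at day 2, against 977, 947 and 935 CPM at day 0, and 1313, 1318 and 1337 CPM in control libraries at day 2, against 903, 949.5 and 951 CPM at day 0. All day 2 libraries were above all day 0 libraries. Its log2 fold change was 0.68 ± 0.08 in FHL2 (adjusted p = 3.95e-06) and 0.50 ± 0.08 in control (adjusted p = 6.49e-05), and with the GC offset 0.06 (adjusted p = 0.54) and -0.13 (adjusted p = 0.167), all from edgeR. H2-K1 was higher in FHL2 at day 2, by 0.47 ± 0.10 (adjusted p = 0.000888), against day 0 libraries of 569.8, 542 and 523 CPM. In control it was 0.11 ± 0.10 (adjusted p = 0.348), against day 0 libraries of 501, 537 and 508 CPM. Under the GC offset H2-K1 changed by -0.07 in FHL2 (adjusted p = 0.61) and by -0.44 in control (adjusted p = 0.00204).

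B2m, the light chain, had 3979, 3521 and 3613 CPM in FHL2 libraries at day 0 and 3442, 4043 and 3503 CPM in control libraries at day 0, values that the FHL2 day 2 libraries overlapped and the control day 2 libraries lay below. Its log2 fold change by day was 0.04 ± 0.09 in FHL2 (adjusted p = 0.730) and -0.35 ± 0.09 in control (adjusted p = 0.00495, or 0.0850 without control library 3 of day 2). The GC offset put it at 1.46 in FHL2 and 1.16 in control (adjusted p = 2.08e-07 and 1.75e-06). The ratio of H2-D1 to B2m counts averaged 0.401 ± 0.008 at day 2 in FHL2 and 0.258 ± 0.012 at day 0, and 0.464 ± 0.048 at day 2 in control and 0.256 ± 0.019 at day 0 (SD, n = 3 each), a description that GC content touches in the same way. H2-K1 and H2-D1 are close paralogs, and no source used here says how reads common to both were counted; the cells are not of the strain of the reference genome. The ratio of H2-D1 to H2-K1 counts was 1.92 to 2.13 in FHL2 libraries at day 2, 2.30 to 2.49 in control libraries at day 2, 1.71 to 1.79 in FHL2 libraries at day 0 and 1.77 to 1.87 in control libraries at day 0.

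Among the transporter and loading genes, no change by day was called without the offset. Tap1 and Tap2, the subunits of the TAP transporter, had fitted changes of 0.09 and 0.03 in FHL2 and -0.25 and -0.19 in control, and Tapbp, tapasin, of 0.14 and -0.10 (adjusted p of 0.159 to 0.871, edgeR). Tapbp had 445, 465 and 443 CPM in FHL2 libraries at day 2, against 403, 406 and 419 CPM at day 0, without overlap. Under the offset all 3 were called lower in both lines: Tap1 at -0.53 in FHL2 and -0.88 in control, Tap2 at -0.63 and -0.88, and Tapbp at -0.53 and -0.79 (adjusted p of 5.81e-07 to 0.00834). In the GENCODE M21 annotation Tap1 shares exon sequence with Psmb9 on the opposite strand and Tapbp with Zbtb22 on the same strand. On the opposite strand Tapbp also overlaps Gm19412, and Nlrc5 overlaps 9330175E14Rik (989 counts over all libraries, beside 5219 for Nlrc5). The libraries were stranded per the labels, but the strand setting of the counting is not given, so reads of these pairs may be shared.

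Of 9 partners in loading and trimming, 2 rose and 7 fell in each line, beside 25.8% of tested genes called higher and 30.2% lower in FHL2 and 26.3% and 30.8% in control. With the GC offset the shares were 20.5% and 19.8% in FHL2 and 20.7% and 19.5% in control. These shares stand beside the day counts of the lists below as well. Calr, the chaperone calreticulin, rose by 1.00 in FHL2 and 1.07 in control on the log2 scale. Falls were seen for Canx (calnexin; -1.31 and -1.32), Pdia3 (the ERp57 of the loading complex; -0.73 and -0.81) and Erap1 (the aminopeptidase that trims peptides; -1.67 and -1.69). Under the offset 2 were called higher and 2 lower in each line: Calr stayed higher (0.93 and 1.01) and Pdia3 lower (-0.29 and -0.35), while Canx and Erap1 were no longer called, and Tpp2, a cytosolic peptidase at -1.47 and -1.40 without it, was called higher (0.69 and 1.02). Tapbpl, the tapasin-related editor of peptides, was called lower with and without it (-1.19 and -1.51 without, -1.64 and -1.98 with), and Lnpep, an aminopeptidase, was lower without it alone (-1.59 and -1.30).

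The immunoproteasome subunits Psmb8, Psmb9 and Psmb10 replace Psmb5, Psmb6 and Psmb7 in the catalytic core when interferon acts on a cell. Psmb8 had 2.84, 1.20 and 5.15 CPM in FHL2 libraries at day 2, against 4.90, 7.67 and 6.50 CPM at day 0. In control it had 4.43, 5.88 and 0 CPM at day 2, against 8.997, 10.95 and 10.2 CPM at day 0. Its groups overlapped in FHL2 and did not in control. There library 3 of day 2, the shallowest, held 0 counts, which allows up to 0.299 CPM (3 counts over the library total). The log2 fold changes of -1.04 ± 0.81 and -1.52 ± 0.81 did not pass (adjusted p = 0.293 and 0.126, edgeR), nor did the -1.42 and -1.92 with the GC offset (adjusted p = 0.176 and 0.0742).

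Psmb9 had 8.46, 7.37 and 17.99 CPM in FHL2 libraries at day 2, against 12.6, 15.6 and 12.8 CPM at day 0, and 12.3, 6.69 and 11.04 CPM in control at day 2, against 13.6, 15.4 and 15.6 CPM at day 0. FHL2 library 3 was above all others at day 2, and the control groups did not overlap. Its changes of -0.27 and -0.57 were not called without the offset. With it the change was -0.80 in FHL2, not called (adjusted p = 0.0675), and -1.10 in control, called lower (adjusted p = 0.0165). Leaving out FHL2 library 3 of day 2 gave -0.78 in FHL2 without the offset (adjusted p = 0.0438). Psmb10 fell in control to the 34.2, 35.6 and 35.7 CPM of day 2, against 53.4, 60.8 and 60.3 CPM at day 0, with a log2 fold change of -0.73 ± 0.14 (adjusted p = 0.000363, edgeR). In FHL2 its groups overlapped, with 55.0, 53.9 and 50.4 CPM at day 0 (-0.12 ± 0.13, adjusted p = 0.470). Under the offset Psmb10 was called lower in both lines (-0.77 and -1.39).

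The counterparts had positive fitted changes. Psmb5 rose by 1.53 in FHL2 and 1.27 in control and Psmb6 by 1.10 and 0.90. Psmb7 rose in FHL2 (0.45, adjusted p = 0.014, edgeR) and had 0.27 in control, not called (adjusted p = 0.112, edgeR). All 3 were called higher in both lines with the offset, at 0.88 and 0.595 for Psmb5, 0.83 and 0.63 for Psmb6 and 1.92 and 1.86 for Psmb7. A ratio within a library does not depend on scaling by library size, but an offset that follows GC content can move it. The log2 ratio of Psmb8 to Psmb5 counts was -3.34, -5.09 and -3.11 in FHL2 libraries at day 2, against -1.63, -0.52 and -1.08 at day 0. In control libraries it was -2.67, -2.18 and -9.59 at day 2, against -0.56, -0.25 and -0.43 at day 0. The ratio of Psmb9 to Psmb6 averaged -5.08 ± 0.57 at day 2 and -3.59 ± 0.25 at day 0 in FHL2, and -4.93 ± 0.42 and -3.41 ± 0.10 in control (SD, n = 3 each). That of Psmb10 to Psmb7 averaged -1.83 ± 0.18 at day 2 and -1.28 ± 0.04 at day 0 in FHL2, and -2.07 ± 0.14 and -1.08 ± 0.17 in control.

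All 3 ratios were lower in every day 2 library than in every day 0 library of the same line. Such separation was common among single genes. In FHL2 29.2% of tested genes had all day 2 libraries above and 37% all below, and in control 29.8% and 38.9%. The share among ratios of other gene pairs was not computed. Each line alone gave an exact permutation p of 0.1, the smallest that 3 against 3 allow (0.2 adjusted over 12 comparisons). With day labels permuted within lines over all 12 libraries, the mean differences of -3.58 (Psmb8), -1.501 (Psmb9) and -0.77 (Psmb10) each had an exact 2-sided p of 0.005, the smallest of 400 arrangements, and 0.005 adjusted over the 3 ratios. The size for Psmb8 leans on control library 3 of day 2, whose -9.59 comes from 0 counts with 0.5 added. Control libraries 1 and 2 of day 2 had -2.67 and -2.18. FHL2 and control were not told apart by any ratio at either day (exact permutation p of 0.2 to 1). Computed from the fitted changes with the GC offset, the differences were -2.30 in FHL2 and -2.51 in control for Psmb8 and Psmb5, -1.63 and -1.73 for Psmb9 and Psmb6, and -2.69 and -3.25 for Psmb10 and Psmb7. Of 10 genes of constitutive subunits, activators and assembly factors, 5 rose and 1 fell in FHL2 and 4 rose and 1 fell in control (4 and 2 in each line with the offset). Psme4, the PA200 activator, was the fall (-2.06 and -2.45, with the offset -1.10 and -1.41). Psme1, of the interferon-inducible PA28 activator, rose by 0.41 and 0.44 but with the GC offset had -0.23 and -0.21, not called, and its partner Psme2 had -0.20 in both lines, not called, and -0.62 in both with the offset, called lower. Psmg1, an assembly chaperone, rose in FHL2 (1.09, with the offset 0.82) and had 0.56 in control, not called (0.28 with the offset).

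**Figure D3:**
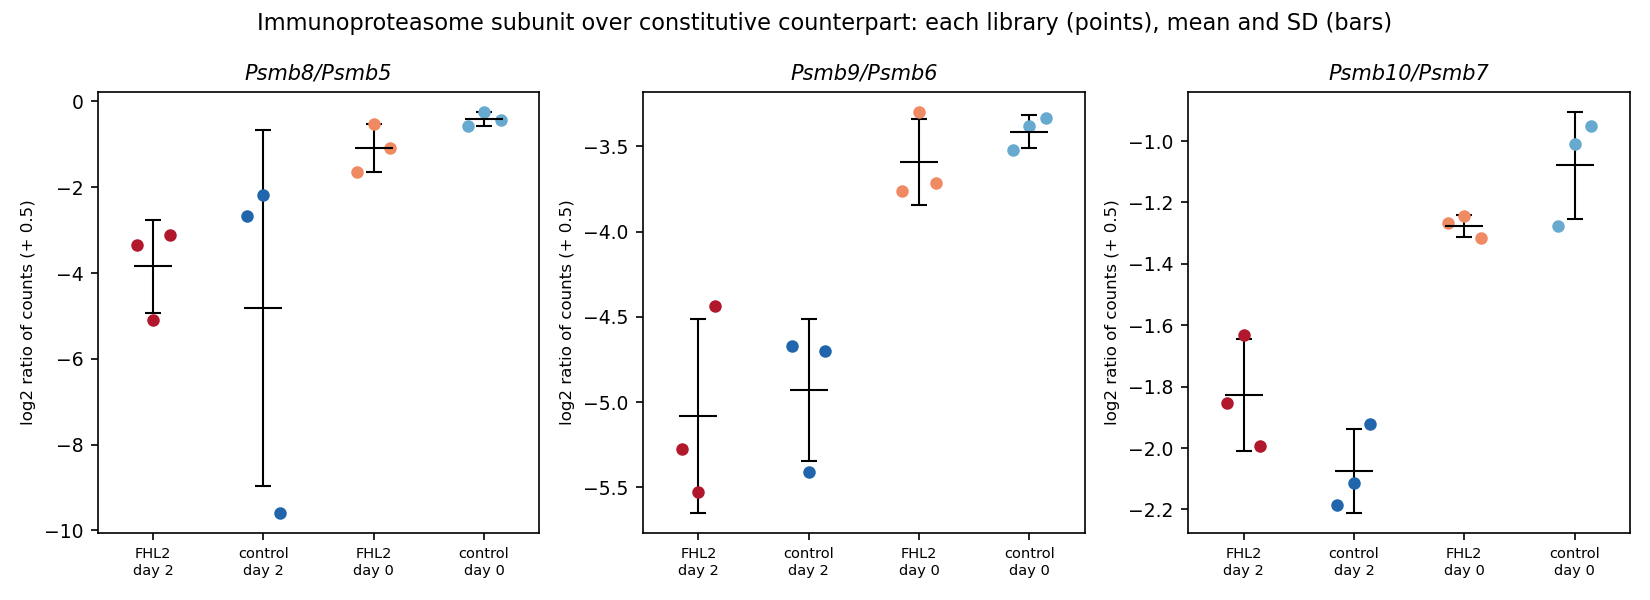
Log2 ratio of the counts of each immunoproteasome subunit to its constitutive counterpart (0.5 added to each count) in the 3 libraries of each group (points), with mean and SD (bars). Every day 2 library lies below every day 0 library of its line, and the lowest Psmb8 to Psmb5 value, -9.59, is the control library with 0 Psmb8 counts.

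Regulators of class I transcription moved in both directions by day, with 7 higher and 7 lower of 18 in FHL2 and 6 higher and 7 lower in control (6 and 5, and 3 and 6, with the offset). Over all tested genes 25.8% were called higher and 30.2% lower in FHL2 and 26.3% and 30.8% in control. With the offset these shares were 20.5% and 19.8% in FHL2 and 20.7% and 19.5% in control. Stat2 and Irf9, of the response to type I interferon, were lower, with log2 fold changes of -1.02 in FHL2 and -1.32 in control for Stat2 and -0.25 and -0.48 for Irf9, and both were called lower in both lines with the GC offset as well. Rfx5, the DNA-binding part of the RFX complex with which NLRC5 works, had log2 fold changes of -0.68 in FHL2 (adjusted p = 0.00162) and -0.62 in control (adjusted p = 0.00322), and the offset left it at -0.68 and -0.61. Creb1 and Atf1, of the CREB/ATF partners, were lower without it (-2.17 and -2.50, -1.88 and -1.53) and with it (-0.53 and -0.69, -1.14 and -0.72). Nfyb, an NF-Y subunit, was lower without it (-1.27 and -1.30) and not called with it (-0.08 and -0.02). Stat3 rose by 1.32 and 1.57, and by 0.95 and 1.18 with the offset.

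Irf1, an interferon-induced activator of class I promoters, had 127, 129 and 122 CPM in FHL2 libraries at day 2, against 78.8, 89.0 and 75.9 CPM at day 0. In control libraries it had 117, 118 and 84.1 CPM at day 2, against 111, 104 and 104.1 CPM at day 0. It rose in FHL2 (0.64, adjusted p = 0.00057) and not in control (0.00, adjusted p = 0.996), but the difference between the lines was not called (0.63, adjusted p = 0.449), and with the GC offset it had 0.22 in FHL2 (adjusted p = 0.152) and was called lower in control (-0.42, adjusted p = 0.0119). Nfkb1, the p50 subunit of NF-kB, was called lower without the offset (-0.45 and -0.62), and with it was called higher in FHL2 (0.34) and had 0.21 in control, not called. Among interferon receptors, kinases and suppressors, 1 of 11 rose and 5 fell in FHL2, and 3 rose and 5 fell in control (1 and 4, and 2 and 4, with the offset). Usp18, an interferon-induced suppressor of the receptor, fell, with log2 fold changes of -1.75 and -2.39 (with the offset -1.95 and -2.59), and Socs3, a suppressor of cytokine signalling, was higher (1.67 and 1.503, with the offset 0.96 and 0.76). Jak2, a kinase of the interferon-gamma receptor, and Ptpn2, a phosphatase that acts on it, were lower (-1.41 and -1.52 for Jak2, -1.36 and -1.82 for Ptpn2), and neither was called with the offset. Ifng, interferon-gamma itself, had 0 counts in every library, which allows up to 0.137 to 0.299 CPM per library (3 counts).

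**Figure D4:**
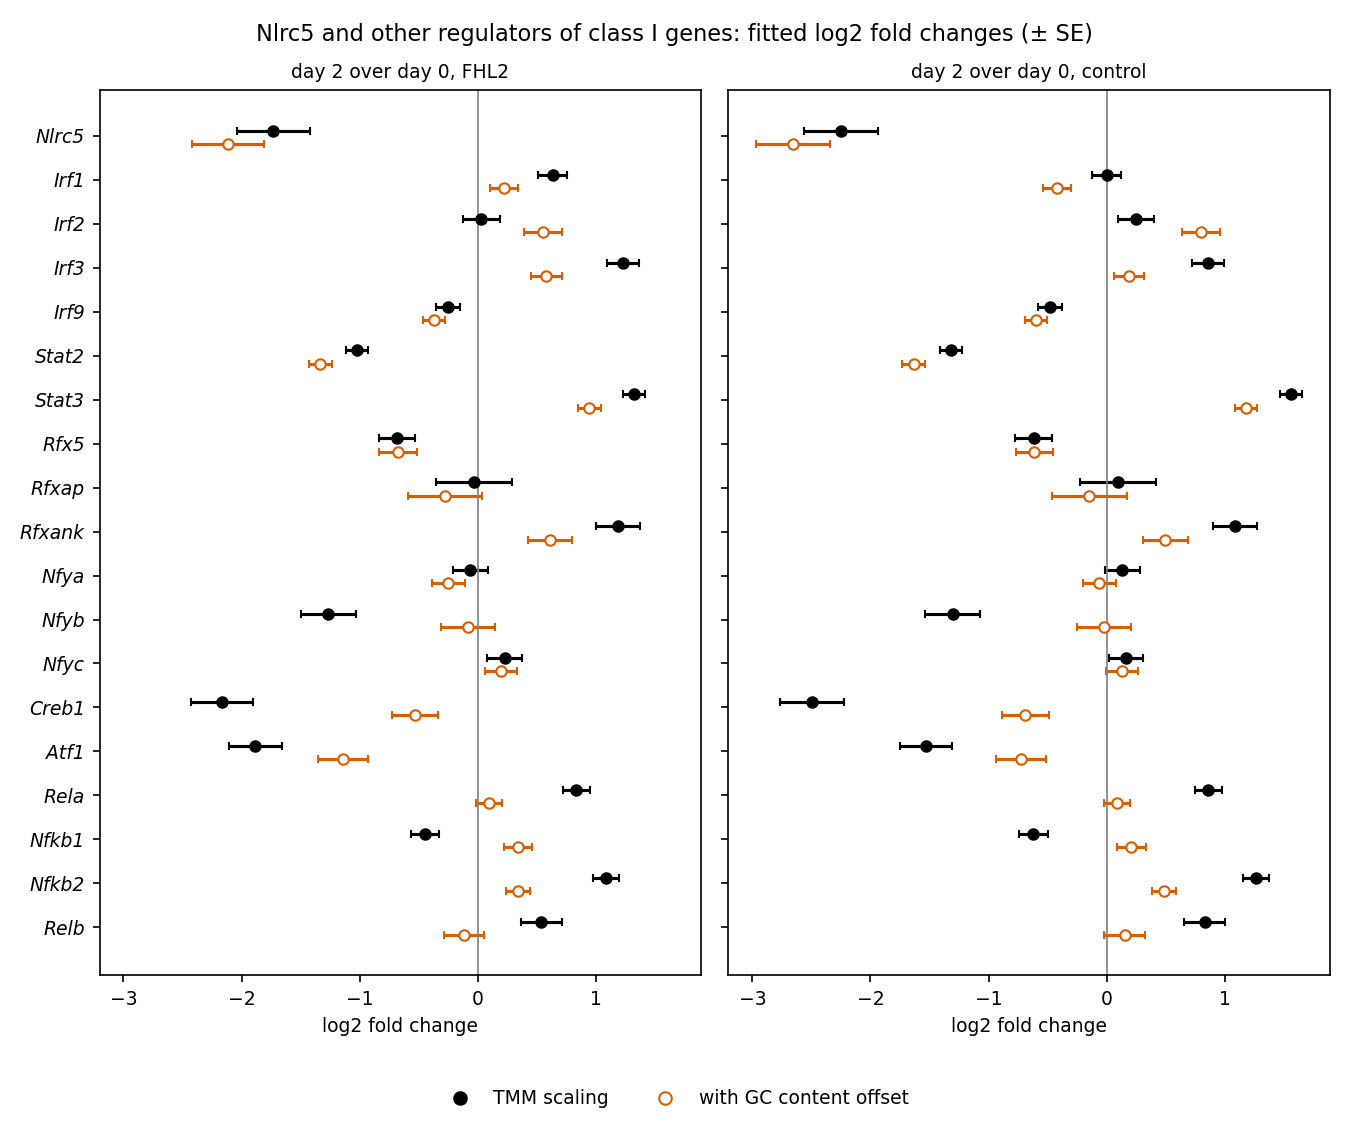
Fitted log2 fold change of day 2 over day 0 (horizontal axes) with its SE for Nlrc5 and 18 tested regulators of class I genes, in FHL2 (left) and control (right), under TMM scaling (filled) and with the GC offset (open). Nlrc5, Stat2, Irf9 and Rfx5 lie below 0 under both scalings in both lines, and Nfkb1 changes sign.

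Profiles over the libraries differed among the 10 genes. Over the 12 libraries, which share 4 group means and their depth, Pearson's r of log2 CPM was 0.82 between H2-K1 and H2-D1, 0.83 between B2m and Psmb10 and -0.91 between H2-D1 and Nlrc5, given as a description. With the mean standardised profile of the 10 genes, B2m had r = 0.86 and H2-D1 r = -0.15. Among 9768 other genes with at least 5 CPM, whose median r with that profile was 0.07, those most like it were Rps24 (r = 0.92), Dnase1l1 (r = 0.91) and Ndufa4 (r = 0.88), followed by Nme7, Apod, Tmem231, Rpl30 and Pcgf1 (r of 0.85 to 0.86). Rps24 averaged 719 CPM in FHL2 at day 2, 528 in control at day 2, 653 in FHL2 at day 0 and 675 in control at day 0.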

How the data were processed

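Polyadenylated RNA was sequenced in stranded libraries, 12 in 4 groups, and the labels alone gave the groups. The authors deposited raw counts per Ensembl gene identifier, 52081 of 55414 with a symbol in the name table used. Per the submitters' processing notes, the build was GRCm39 (mm39) and the tools included HISAT2 2.2.1, HTSeq 0.11.0, limma, R 4.1.0, Trimmomatic 0.39 and FastQC 0.11.9; no source used here gives their settings. GC content and length were those of the longest GENCODE M21 transcript of each gene identifier (99.8% of tested genes), from the previous build.

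Counts were tested with edgeR 4.0.16 (R 4.3.3): filterByExpr by group, TMM scaling, and a quasi-likelihood fit of 1 mean per group to all 12 libraries, with Benjamini-Hochberg adjustment over 14435 genes and calls at an adjusted p under 0.05. All p-values are 2-sided and from edgeR unless another test is named. The spread is shared over days that differ in it. The GC offset was a loess fit (span 0.5) per library over genes above 5 CPM. Subunit ratios added 0.5 to each count and were tested by exact permutation. The code was tested on simulated data with 200 changed genes.

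Alternatives were DESeq2 1.42.0, limma-voom 3.58.1, scaling by RLE or by the upper quartile, a filter at 1 CPM in 3 libraries or none, only the groups compared, a replicate block, leaving out libraries, and GC and length offsets. The ratio differences with the GC offset were added after seeing the data. The 10 genes, the lists, the rule for named genes and the tests were chosen with earlier results of these data known. By that rule the text names the 10 members, a few fixed regulators and proteasome genes, up to 4 called genes of at least 5 CPM with the largest change per list, and the genes most like the members; Calr, Pdia3, Irf9, Stat2, Nfkb1, Ifng, H2-Ab1 and H2-Eb1 were named after their values were seen. Replicates differed beyond sampling noise (chi-square per degree of freedom 5.54 to 48.1 between libraries of a group). Floors cover counting error only. Floors and marker sums are CPM of library totals without TMM scaling. No adjustment was made for reads shared by paralogs. 1 regulator of the list is not reported here.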

Additional observations from a re-analysis of the deposited data

How the results depend on the processing

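The fall of Nlrc5 by day kept its direction and its call in both lines under every alternative run. In FHL2 against control at day 2, where 299 genes and 2 class I genes were called higher or lower, the counts were 846 genes without a filter, 997 genes and 4 class I genes with DESeq2, 39 and 0 with only the groups compared, and 1606 and 4 without the 3 libraries of day 2 in which the fewest genes were detected; 1 class I gene was called with either offset, and leaving out a library gave 146 to 404 genes and 0 to 3 class I genes. The replicate block gave 0 class I genes (H2-K1 0.43, adjusted p = 0.0594; B2m 0.41, adjusted p = 0.0557). Deviations of same-numbered libraries from their group means had r of -0.15 to 0.28 over 18 pairs, 5 above 0.1. Such values cannot settle whether the numbers pair the samples, so the replicate block stands as an alternative.

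At day 0 the 7 genes called between the lines became 69 without a filter, 88 with DESeq2, 18 with limma-voom, 246 with only the groups compared, 11 with the replicate block, 135 without the 3 libraries, 12 and 32 with the GC offset and the GC and length offset, and 1 to 10 without a library. The 1 interaction call became 2 with upper-quartile scaling, 91 without a filter, 66 with DESeq2, 243 without the 3 libraries (2 of them class I genes, H2-K1 and Psmb10), 4 and 7 with the offsets, and 0 to 6 without a library. By day, class I genes called higher and lower in FHL2 numbered 1 and 5 with the GC offset, 1 and 7 with length added, and 1 to 2 lower without a library. In control 7 and 8 were lower with the offsets, and 2 were higher and 5 lower without the 3 libraries.

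Signs turned as follows; the cause was not tested. By day in FHL2, with the GC offset and with length added: H2-K1 -0.067 and -0.28, Tap1 -0.53 and -0.50, Tap2 -0.63 and -0.66, Tapbp -0.53 and -0.61, and H2-D1 -0.12 with length added. By day in control: H2-K1 -0.44 and -0.60, H2-D1 -0.13 and -0.28, and B2m 1.16 and 0.81. Without the 3 libraries Psmb9 had 0.41 and Psmb10 0.12 by day in FHL2, and Nlrc5 -0.68 in FHL2 against control at day 2 and -0.51 in the interaction. Psmb8 had 0.92 with limma-voom at day 2, H2-D1 -0.018 with GC and length at day 0, and Tapbp 1.4e-05 by day in control with upper-quartile scaling.

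Leaving out a library also turned values that were not called. In FHL2 against control at day 2 the ranges were -0.82 to 0.39 for Psmb8, -0.35 to 0.40 for Psmb9 and -0.16 to 0.12 for Tap2, and for B2m at day 0 -0.040 to 0.091. By day in FHL2 they were -0.019 to 0.13 for B2m, -0.23 to 0.0086 for Psmb10, -0.073 to 0.23 for Tap1 and -0.14 to 0.15 for Tap2, and in the interaction -0.18 to 1.03 for Psmb8 and -0.24 to 0.51 for Psmb9. The log2 ratios between FHL2 and control at day 2 ranged over -1.42 to 2.28 for Psmb8 to Psmb5 and -0.47 to 0.071 for Psmb9 to Psmb6. Psmb8 had under 100 counts in every day 2 library, with an SE of 0.82 between the lines.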

Other observations

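Of 17 listed other class I and class I-like genes, 11 could be tested. Between the days, 2 rose and 3 fell in FHL2, and 2 rose and 6 fell in control (3 and 4, and 2 and 6, with the GC offset), beside 56% and 57.1% of all tested genes called in either direction (40.3% and 40.2% with the offset). Fcgrt, the neonatal Fc receptor that also pairs with beta-2-microglobulin, averaged 167 CPM at day 2 and 75.6 at day 0 in FHL2, and 157 and 79.8 CPM in control. It rose by 1.14 and 0.98 on the log2 scale (adjusted p = 4.86e-07 and 1.90e-06, edgeR), and by 0.52 and 0.34 with the GC offset. H2-Q4, a nonclassical heavy chain, fell to 49.9 CPM at day 2, against 92.4 at day 0 in FHL2, and to 42.4 CPM, against 106 in control (-0.89 and -1.32, with the offset -1.43 and -1.87). Mr1, which presents vitamin B metabolites, had log2 fold changes of -1.84 and -1.75, both called, and with the offset -0.76 in FHL2, called, and -0.56 in control, not called. H2-M3, which presents formylated peptides, was lower with and without the offset (-0.95 and -1.05 without, -1.16 and -1.27 with). H2-T22 had -0.12 in FHL2, not called, and was lower in control (-1.01, adjusted p = 0.0118, edgeR); with the offset it had -0.26 and -1.16, and the difference between the lines was not called.

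Of 7 listed MHC class II genes 3 could be tested. H2-Ab1 and H2-Eb1 had 0 counts in every library, which allows up to 0.137 to 0.299 CPM per library. Cd74, the invariant chain, averaged 17.9 CPM at day 2 and 29.5 at day 0 in FHL2, and 9.3 and 32.1 CPM in control, and fell in both lines (-0.72, adjusted p = 0.0277, and -1.77, adjusted p = 5.76e-05, edgeR; with the offset -1.37 and -2.44, both called). H2-DMa, which helps load class II molecules, rose by 1.46 and 1.32, and by 0.87 and 0.72 with the offset. Between the lines at day 2 the log2 fold change of Cd74, 0.93, did not pass (adjusted p = 0.0886).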
